A study of Mus musculus with 87 samples.

Results

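The genes described here are those of the extracellular matrix that the array annotation names as collagens (Col symbols with an alpha chain number), laminins (Lama, Lamb and Lamc), tissue inhibitors of metalloproteinases (Timp) and matrix metalloproteinases (Mmp), together with Fn1, Sparc, Dcn, Bgn and Lum. The rule picks members by symbol alone and uses no measured value. There were 86 such probe sets, standing for 61 genes, of 12422 probe sets that are not controls and 8251 genes with a symbol. Of the 61 genes, 20 had more than 1 probe set and 41 had 1. By role they were 13 probe sets of fibrillar collagens, 11 of basement membrane collagens, 20 of other collagens, 14 of laminins, 6 of secreted matrix proteins, 6 of TIMPs and 16 of MMPs.

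The extracellular matrix is the meshwork that cells secrete around themselves. Fibrillar collagens form the fibres of connective tissue, while type IV collagen and the laminins build the basement membrane, the thin sheet under endothelium and epithelium. MMPs cleave matrix proteins and TIMPs inhibit them. In the adult brain, collagens and laminins are known mainly from the meninges, the vessel walls and the choroid plexus, and the space between neurons and glia is dominated by proteoglycans rather than by fibres. The pituitary gland, in contrast, has fenestrated capillaries, a connective tissue capsule and collagen-producing stromal cells.

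Sequence before the transcription start is shown for 4 members, chosen because the main results turn on them or on their partner chains. Col1a2 and Col3a1 encode chains of fibrillar collagens I and III, Sparc is a secreted collagen-binding glycoprotein, and Timp2 is an MMP inhibitor. The table of RefSeq promoters (build GRCm38.p6) held 41 of the 61 member genes in 47 entries. The 250 bases before the start are given 5′ to 3′ on the strand of the gene, and capitals mark 3 motifs on either strand, which are CCAAT, the promoter element TATAAA and the Sp1 type element GGGCGG. The windows are chr6:4505368-4505617 (plus strand) for Col1a2, chr1:45311288-45311537 (plus) for Col3a1, chr11:55420081-55420330 (minus) for Sparc and chr11:118355412-118355661 (minus) for Timp2.
Col1a2: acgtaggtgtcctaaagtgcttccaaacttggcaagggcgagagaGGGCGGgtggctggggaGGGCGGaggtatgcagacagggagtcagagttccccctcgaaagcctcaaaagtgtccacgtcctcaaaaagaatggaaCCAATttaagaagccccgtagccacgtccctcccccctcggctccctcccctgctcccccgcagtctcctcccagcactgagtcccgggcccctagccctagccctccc
Col3a1: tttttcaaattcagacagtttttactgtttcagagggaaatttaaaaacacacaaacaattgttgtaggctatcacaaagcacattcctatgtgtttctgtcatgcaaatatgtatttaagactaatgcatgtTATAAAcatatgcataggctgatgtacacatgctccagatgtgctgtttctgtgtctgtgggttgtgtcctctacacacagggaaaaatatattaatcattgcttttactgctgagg
Sparc: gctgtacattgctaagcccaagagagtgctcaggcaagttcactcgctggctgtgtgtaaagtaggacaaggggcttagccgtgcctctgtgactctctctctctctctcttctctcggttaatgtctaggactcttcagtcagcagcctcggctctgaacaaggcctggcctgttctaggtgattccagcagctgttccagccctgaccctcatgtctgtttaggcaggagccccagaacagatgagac
Timp2: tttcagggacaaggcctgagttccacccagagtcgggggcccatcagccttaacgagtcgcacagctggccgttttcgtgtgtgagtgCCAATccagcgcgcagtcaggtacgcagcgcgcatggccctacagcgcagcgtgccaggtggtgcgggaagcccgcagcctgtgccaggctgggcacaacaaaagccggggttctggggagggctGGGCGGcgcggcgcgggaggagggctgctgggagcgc
Of these motifs, TATAAA and CCAAT can each share letters with a copy of the same motif on the opposite strand. CCAAT was found in 33.8% of the 32851 promoters of the table and in 15 of the 47 member entries, TATAAA in 12.4% and in 9 entries, and GGGCGG in 32.7% and in 21 entries. A match describes letters only. Col3a1 lies next to Col5a2 in the annotation, Dcn next to Lum, Col6a1 next to Col6a2, and Col4a1 next to Col4a2.

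The study measured RNA of wild-type males of 8 weeks from 6 inbred strains, namely FVB/NJ, DBA/2J, C57BL/6J, A/J, C3H/HeJ and 129S6/SvEvTac. Affymetrix MG_U74Av2 arrays were made from the amygdala, the bed nucleus of the stria terminalis and the cingulate cortex (13 arrays each), and from the hippocampus, hypothalamus, periaqueductal gray and pituitary gland (12 arrays each). The 42 groups of strain and tissue held 2 arrays (39 groups) or 3 (3 groups), and each array held RNA pooled from 1 to 5 mice. Per the labels, amygdala and cingulate cortex RNA (50 ng, 26 arrays, tissue kept in RNALater) was amplified in 2 rounds, whereas the other 61 arrays used 10 µg from tissue frozen without it. The tissues of those 2 protocols were therefore tested only among themselves, and levels given across them are a description. Scanner records name an animal in 79 arrays that was also used for another region, so regions are not independent animals, and 4 arrays name the same animals as their own replicate. P-values measure the spread between arrays of such pools.

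Arrays that stand apart were the following. Over 200 probe sets that separate the strains in brain, the 4 pituitary arrays whose labels give FVB/NJ or C3H/HeJ correlated with the profile of the other of these strains (r from 0.86 to 0.891) and not with their own (r from -0.329 to -0.283), while the other 8 pituitary arrays matched their label (r from 0.786 to 0.865). Strain comparisons were therefore made over the 6 brain regions. The labelled pituitary tissue carried its hormone genes: the summed intensity of 8 pituitary cell markers was 55309 to 68995 there and 389 to 11514 in brain arrays. Array medians ran from 42.3 to 66.1 and upper quartiles from 163.6 to 184.6.

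Intensities of members are given as deposited, as the lowest, median and highest array of a group. The median over all probe sets and arrays was 55.4. Differences are on the log2(intensity + 16) scale with the standard error (SE) of limma, so that a difference between dim values is understated, and a level named for a comparison is the mean on this scale turned back to intensity. A probe set was called where limma's adjusted p (Benjamini-Hochberg over all 12422) lay below 0.05. In their highest group, 49 of the 86 members (41 genes) exceeded the median of all values, with 8 of 13 fibrillar collagens, all 6 secreted matrix proteins, 9 of 14 laminins and 4 of 16 MMPs. In whole tissue, fewer cells of a type and less RNA per cell cannot be told apart.

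Across the 6 comparisons of regions and the 6 of strains, 64 member probe sets of 50 genes were called at least once. The same count was not made over all probe sets, so no background stands beside it. The pituitary comparison alone called 64.4% of all probe sets and 59.3% of members. The 11 genes with no call were mostly dim: Mmp2, Mmp3, Mmp8, Mmp13, Mmp24, Col2a1, Col4a5, Col10a1, Col14a1 and Col17a1 had no region mean above 24.2. Col26a1 was the exception, with region means between 52.0 and 80.1. Timp4 was not among the members.

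**Figure D1:**
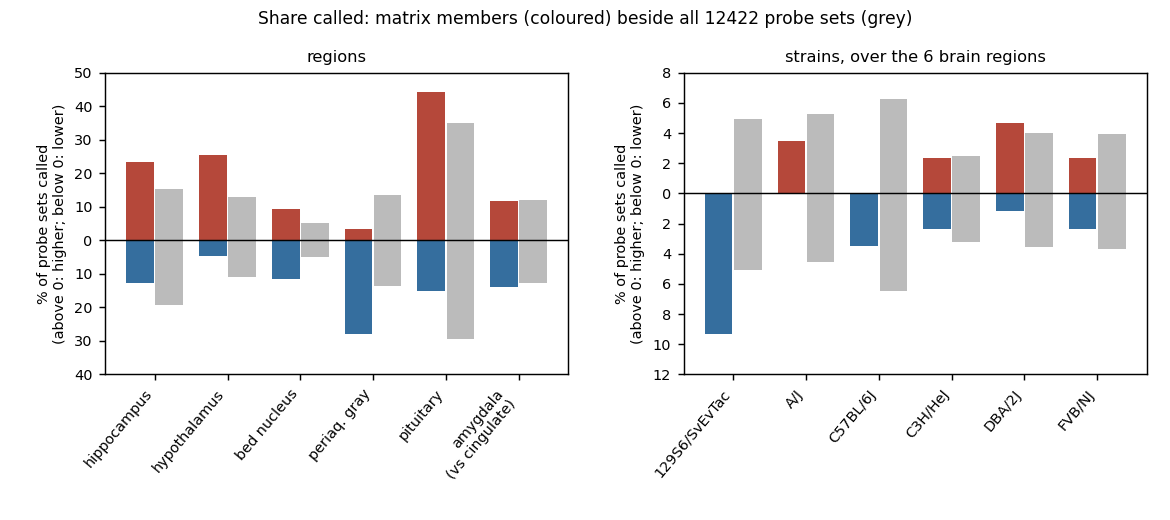
Share of probe sets called higher (above 0) or lower (below 0) at adjusted p below 0.05, as a percentage of the 86 members (coloured bars) and of all 12422 probe sets (grey bars); left, each region comparison; right, each strain against the other 5 over the 6 brain regions. Members called in the hypothalamus are mostly higher (22 against 4) and in the periaqueductal gray mostly lower (24 against 3), while the strain bars stay below 10%.

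The pituitary gland had higher signal than the brain for Col1a1, Col1a2 and Col3a1 by at least 1 probe set each, for the small proteoglycan genes Dcn and Lum and for most laminin probe sets, and lower signal for Sparc, Timp2 (93507_at), Mmp17 and Fn1. Against the mean of the hippocampus, hypothalamus, bed nucleus and periaqueductal gray, 51 of 86 members were called, 38 higher and 13 lower. The background in this comparison was high: 64.4% of all probe sets were called, 35.0% higher and 29.4% lower. Read against that, the total of 59.3% of members is near the background, with more higher calls (44.2%) and fewer lower calls (15.1%).

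Of the 13 fibrillar collagen probe sets 6 were called higher, 3 lower and 4 not at all. Col1a2, the alpha 2 chain of type I collagen, showed the largest difference of any member. Its probe set 101130_at read 391 to 683 (median 516) in the 12 pituitary arrays and -0.89 to 195.3 (median 16.7) in the 49 arrays of the 4 brain regions. No brain array reached the lowest pituitary array. The difference was 3.77 ± 0.13 (SE, limma adjusted p = 1.52e-31), in the same direction in 6 of 6 strains. The second Col1a2 probe set, 161156_r_at, went the other way (188 against 232, -0.28 ± 0.07, limma adjusted p = 0.000812), and it was no longer called when the C3H/HeJ and FVB/NJ pituitary arrays were left out (adjusted p = 0.0923), so the probe sets of this gene disagree. Col1a1, the partner chain, read 84.2 to 183.8 in the pituitary by probe set 94305_at, with a difference of 1.42 ± 0.10. Its other probe set, 103709_at, was called in no region and had region means of 68.4 to 111.7. Col3a1 rose by 1.14 ± 0.11 (98331_at) and 0.52 ± 0.12 (161984_f_at), and its remaining probe set, 102990_at, was dim (4.34 against 0.85) and differed by 0.27 ± 0.07.

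Dcn encodes decorin, a small leucine-rich proteoglycan that binds collagen fibrils. It read 845 to 1486 (median 1187) in the pituitary, above all 49 brain arrays, of which the highest was a hippocampus array at 753. The difference was 2.56 ± 0.10 (limma adjusted p = 8.20e-29). Lum, encoding the related lumican, read 94.1 to 198.4 in the pituitary and at most 59.5 in those brain arrays, a difference of 1.67 ± 0.10. Bgn, encoding biglycan, rose by 1.08 ± 0.10 by probe set 96049_at (301 against 134), whereas 162347_f_at was called in no comparison. Mmp14, a membrane-bound metalloproteinase, read 191 to 365 against at most 188.5 in those brain arrays, a difference of 1.08 ± 0.08. Dcn, Lum, Mmp14, Col1a2 (101130_at) and 102262_r_at of Col13a1, a transmembrane collagen (1.48 ± 0.12), were the 5 probe sets whose pituitary arrays all lay above the 49 brain arrays, where 7.41% of all probe sets did so. Bgn overlapped, with 221.8 in the lowest pituitary array and 227.5 in the highest of those brain arrays.

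Basement membrane genes were also mostly higher in the pituitary. Of the 14 laminin probe sets 11 were called higher and none lower, with a median difference of 0.53 beside 0.024 over all probe sets. Lama1 read 60.8 to 165.6 (median 114) in the pituitary and 12.9 to 77.1 in the 4 brain regions, a difference of 1.36 ± 0.10, so the groups overlap. Lama5 rose by 0.85 ± 0.08 (99931_at) and 0.19 ± 0.08 (161702_f_at). Lama2, Lama3, Lama4, Lamb1, Lamb2 and Lamc1 had called probe sets between 0.20 and 0.70. Col4a1 rose by 0.60 ± 0.06 while Col4a2, which encodes the chain it assembles with, fell by 0.14 ± 0.06. Col18a1 (1.52 ± 0.09 by 101881_g_at and 0.86 ± 0.08 by 99638_at) and Col15a1 (0.99 ± 0.09), collagens of the basement membrane zone, and Col7a1, the anchoring fibril collagen (0.93 ± 0.08), were higher too. So was Col4a4 (0.83 ± 0.16), with levels of 27.8 against 8.61.

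Of the 13 probe sets called lower in the pituitary, those of Timp2, Sparc, Mmp17 and Fn1 had the largest differences. Timp2 by probe set 93507_at read 73.5 to 136.6 in the pituitary and 241 to 870 in the 4 brain regions, a difference of -2.05 ± 0.08 (limma adjusted p = 1.62e-29). Its probe sets disagree: 160116_at also fell by 0.73, but 161515_i_at rose by 0.76 between dim levels of 20.0 and 5.26. Sparc read 158 to 318 against 252 to 1658, a difference of -1.72 ± 0.06, overlapping only with the hippocampus (252 to 359). Mmp17, a membrane-anchored metalloproteinase, read 59.6 to 124.4 against 141 to 576, a difference of -1.44 ± 0.06. Fn1, encoding fibronectin, read 31.2 to 76.7 against 78.2 to 325.8, a difference of -1.23 ± 0.08. Timp2, Mmp17 and Fn1 were the 3 members whose pituitary arrays all lay below those brain arrays (6.92% of all probe sets). Col11a2 (-0.75 ± 0.11), Mmp9 (-0.64 ± 0.09), Col9a3 (-0.63 ± 0.09), Col19a1 (-0.33 ± 0.06), Col5a1 (-0.24 ± 0.05 by 93472_at) and Col9a2 (-0.23 ± 0.08) fell by less. With additive terms for strain, region and scan day the Col19a1 call was lost (adjusted p = 0.222). Timp1 rose by 0.38 ± 0.08 (101464_at, 235 against 177) and Timp3 by 0.41 ± 0.04 (905 against 676), and the second Timp1 probe set was near 0 everywhere.

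Genes of collagen processing were mostly higher as well. Of 12 measured genes of collagen processing and cross-linking, 10 were higher and none lower in the pituitary, among them Pcolce (1.72 ± 0.17), which enhances procollagen cleavage, Serpinh1 (1.67 ± 0.10), the collagen chaperone, and P4ha2 (1.29 ± 0.06), a prolyl hydroxylase subunit. Of 18 genes of TGF-beta signalling 13 were higher and 3 lower, with Tgfbi at 1.06 ± 0.07 and Tgfb2 at -1.03 ± 0.09. Among 13 integrins 2 were higher, including Itgb1 (1.60 ± 0.05), and 2 were lower, including the laminin receptor chain Itgb4 (-1.58 ± 0.13). Of 16 brain proteoglycans and tenascins 4 were higher and 8 lower, the latter including Ptprz1 (-4.35 ± 0.08), and of 12 other basement membrane components 4 were higher and 2 lower. Markers of other cells moved with these differences. All 8 pituitary cell markers and 5 of 6 blood markers were higher (summed blood level 3735 to 8682, against 841 to 7797 in the 4 brain regions). Of 12 endothelial markers 7 were higher and 5 lower, all 7 neuronal and all 8 astrocyte markers were lower, and of 16 markers of meninges and perivascular fibroblasts 5 were higher and 9 lower. Their part in the matrix differences was not tested.

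**Figure D2:**
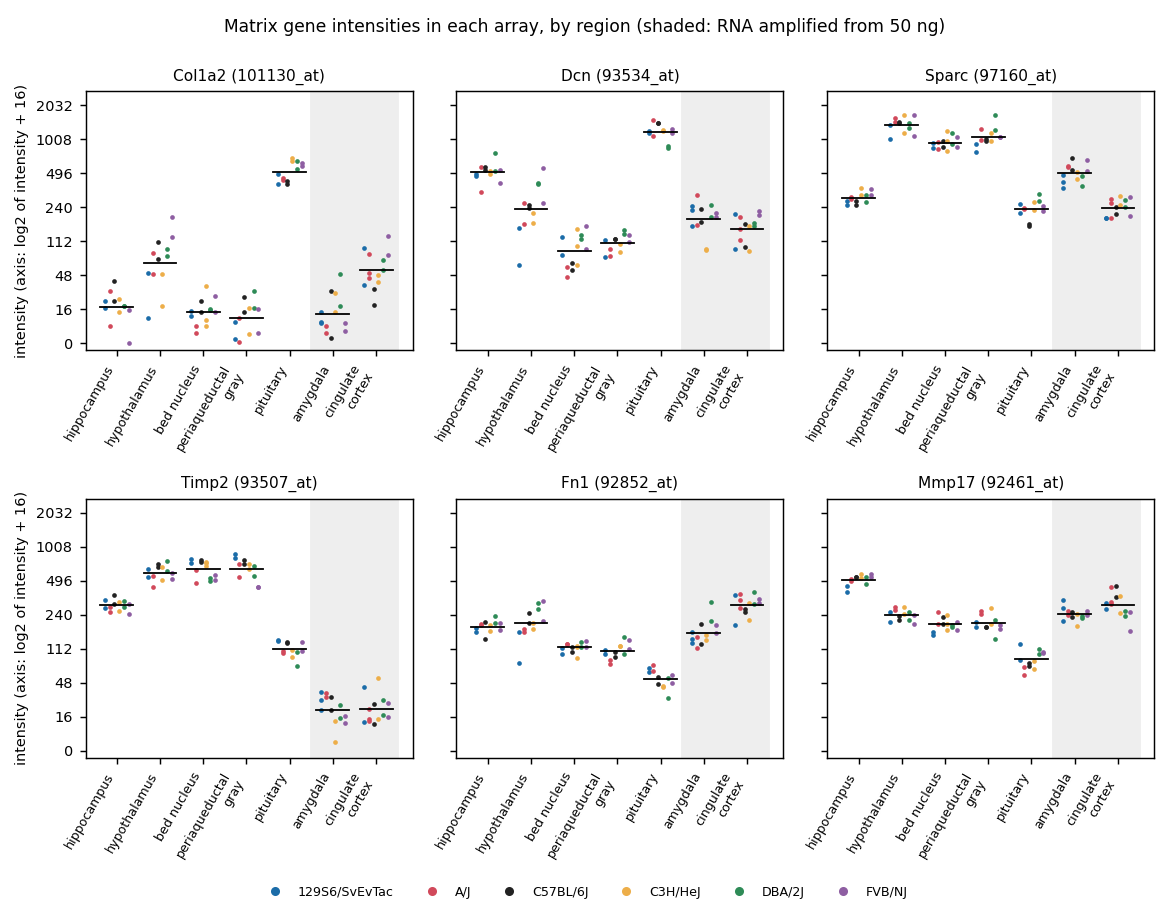
Intensity of 6 members in every array by region, on an axis of log2(intensity + 16) labelled with the intensity; points are arrays coloured by strain, black lines are means on this scale, and the shaded tissues were amplified from 50 ng. Pituitary arrays lie above all 10 µg brain arrays for Col1a2 and Dcn and below them for Timp2, Fn1 and Mmp17, while Timp2 lies near 20 in both amplified tissues.

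Among the 4 brain regions labelled from 10 µg, the hippocampus was marked by high Dcn, Col19a1 and Mmp17 and low Sparc, Timp2 and Timp3. The amplified amygdala and cingulate cortex were not part of this comparison. In the cingulate cortex, Col19a1 arrays lay within or above the hippocampus range and Sparc arrays within or below it. Amygdala arrays lay above that range for Sparc. The Timp2 probe set given below read lower in both amplified tissues, where region and labelling cannot be told apart. Against the other 3 regions labelled from 10 µg, 31 of 86 members were called, 20 higher and 11 lower. The share of members (36.0%) is near the background of 34.6% of all probe sets (15.2% higher, 19.4% lower). Dcn read 335 to 753 (median 517) in the hippocampus, against 76.7 to 144.1 in the periaqueductal gray, 45.6 to 159.1 in the bed nucleus and 62.2 to 546.7 in the hypothalamus, so that only hypothalamus arrays overlapped. The difference was 1.82 ± 0.11 (limma adjusted p = 5.61e-21). Col19a1, a fibril-associated collagen that is made by interneurons in mouse brain, read 143 to 243 against at most 74.5 in the other 3 regions, with no overlap and a difference of 1.73 ± 0.06. Mmp17 read 387 to 576 against at most 280.7, again with no overlap, and differed by 1.21 ± 0.06.

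Laminin beta 1 was also higher in the hippocampus, by 0.82 ± 0.09 (162263_f_at) and 0.78 ± 0.07 (101948_at) for Lamb1. Further members that rose were Mmp16 (0.74 ± 0.13), Col6a1 (0.62 ± 0.12 and 0.32 ± 0.06), Col5a1 (0.61 ± 0.10 and 0.27 ± 0.05), Col11a1 (0.51 ± 0.08), Lum (0.49 ± 0.11), Col5a2 (0.48 ± 0.10) and Fn1 (0.41 ± 0.08). Sparc read 252 to 359 in the hippocampus and 765 to 1658 in the other 3 regions, with no overlap and a difference of -1.85 ± 0.06 (limma adjusted p = 9.10e-31). Timp2 (93507_at) read 241 to 368 against 434 to 870 and fell by 1.03 ± 0.08. Lower by 0.50 to 0.80 were Col8a1, Col18a1 by 101881_g_at (levels of 4.77 against 19.2) and 99638_at, Lamb3, Timp3 (385 to 630 in the hippocampus, -0.62 ± 0.04), Col6a3 and Col15a1. With additive terms for strain, region and scan day, Lamb3 (adjusted p = 0.352) and Col6a3 (adjusted p = 0.144) lost the call. Markers of neurons (4 of 7 higher, 3 lower) moved with the region, while those of meninges and perivascular fibroblasts were 2 higher and 2 lower of 16.

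The hypothalamus had higher signal than the other 3 regions for Sparc, for 1 of the 2 probe sets of both Col1a1 and Col1a2, for Lamb2 and Lama1 and for 1 probe set of both Lamb3 and Lama4, and lower signal for Lamb1. Of 86 members 26 were called, 22 higher and 4 lower, where 23.8% of all probe sets were called, 13.0% higher and 10.8% lower. The share of members called higher was 25.6%. Col1a2 (101130_at) read 10.7 to 195.3 (median 76.4), overlapping with the other 3 regions (-0.89 to 41.2), and differed by 1.45 ± 0.14 (limma adjusted p = 1.50e-12), higher in 6 of 6 strains. Lamb3, a chain of laminin 332, read 18.8 to 54.4 against -18.2 to 40.5 and differed by 1.23 ± 0.14 (92759_at). Its other probe set, 161188_f_at, had means below 0 in every region. Sparc read 1017 to 1656, the highest median of any region (1401), and differed by 1.0 ± 0.06. Col1a1 (94305_at) read 35.6 to 169.9 and differed by 0.85 ± 0.10. The other probe sets of the type I collagen genes were not called: 161156_r_at of Col1a2, the brighter of its probe sets in brain, read 233 against 232, with a difference of 0.004 ± 0.08 (limma adjusted p = 0.984), and 103709_at of Col1a1 differed by 0.18 ± 0.09 (limma adjusted p = 0.144).

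Smaller hypothalamic increases were seen for Col6a2 (0.55 ± 0.08), Fn1 (0.54 ± 0.08), Lamb2 (0.49 ± 0.09), Col18a1 (0.47 ± 0.09 by 101881_g_at), Lama1 (0.47 ± 0.10) and Bgn (0.39 ± 0.10 by 96049_at). Dcn (0.39 ± 0.11), Col3a1 (0.35 ± 0.12 and 0.32 ± 0.12), Lum (0.30 ± 0.11) and Col4a2 (0.24 ± 0.06) also rose. Lamb1 (-0.41 ± 0.07 and -0.24 ± 0.09), Col19a1 (-0.35 ± 0.06) and Mmp17 (-0.18 ± 0.06) were the only members called lower. With additive terms for strain, region and scan day the count of members was 13, and Lamb2, Col18a1 (101881_g_at), Lama1, Bgn, Col19a1 and Lamb1 (162263_f_at) lost the call. Among other genes of the matrix, 4 of 12 collagen processing genes were higher and none lower, with Serpinh1 at 0.40 ± 0.10. TGF-beta signalling showed 4 of 18 higher and 2 lower, and Ccn2, encoding a matrix protein induced by TGF-beta, rose by 0.81 ± 0.12.

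Markers of meninges and perivascular fibroblasts rose in the same hypothalamus arrays. None is picked by the member rule, which goes by symbol and does not cover every matrix gene. Of 16 markers 14 were higher and none lower, led by Fmod (1.78 ± 0.15), Ogn (1.26 ± 0.14) and Igf2 (1.25 ± 0.19). Their summed level ran from 1338 to 5876 (median 2983), against medians of 1460 to 1986 in the other 3 regions. Blood markers (3 of 6 higher) and genes listed as pituitary cell markers (4 of 8 higher) rose as well. Among the latter, Pomc rose by 2.13 ± 0.17, Cga by 1.78 ± 0.34 and Tshb by 1.25 ± 0.17. Pomc is not made by pituitary cells alone. None of 12 endothelial markers was higher and Cldn5 was lower. The FVB/NJ array 1 was highest in meningeal and blood markers, and the C57BL/6J array 1 in pituitary cell markers (9268). Without these 2 arrays 16 members were called, 14 higher and 2 lower, and Col1a2 (1.35), Sparc (1.05) and Col1a1 (0.74) kept their calls. The share of all probe sets called without them is not given here, so the count is no result about the members alone. The arrays kept still carried meningeal marker sums of 1338 to 3753, so leaving out 2 arrays does not test the part of these cells. That part was not tested.

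In the periaqueductal gray, most of the matrix genes called were low. Of 86 members 27 were called, 3 higher and 24 lower, where 27.1% of all probe sets were called, 13.5% higher and 13.6% lower. The 27.9% of members called lower included 5 of 13 fibrillar collagen, 7 of 20 other collagen and 4 of 6 secreted matrix probe sets. Dcn read 76.7 to 144.1 (median 113) and differed by -0.95 ± 0.11 (limma adjusted p = 2.26e-10). Lamb3 (-0.73 ± 0.14), Col1a1 (-0.69 ± 0.10 by 94305_at), Col1a2 (-0.69 ± 0.14 by 101130_at), Lamb1 (-0.65 ± 0.09 and -0.53 ± 0.07), Col6a1 (-0.64 ± 0.12 by 162459_f_at) and Col6a2 (-0.62 ± 0.08) were also lower. The second probe sets of Col1a1 and Col1a2, 103709_at and 161156_r_at, were not called. Lum fell by 0.55 ± 0.11, Fn1 by 0.54 ± 0.08, Mmp17 by 0.48 ± 0.06 and Bgn by 0.46 ± 0.10. Higher were Sparc (765 to 1658, 0.55 ± 0.06), Timp2 (435 to 870, 0.41 ± 0.08) and Col15a1 (0.39 ± 0.09). With additive terms for scan day 16 members were called, and neither Col1a1 (adjusted p = 0.12) nor Col1a2 (adjusted p = 0.05004) was among them. Of the 16 meningeal and perivascular markers 12 were lower and none higher, led by Igf2 (-1.45 ± 0.19), with a summed level of 1358 to 1636. The 4 regions share their arrays in these comparisons, each being part of the reference of the other 3. The part of these cells was not tested.

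The bed nucleus of the stria terminalis had low Dcn and Col19a1. Of 86 members 18 were called, 8 higher and 10 lower, where 10.0% of all probe sets were called (5.17% higher, 4.88% lower), so that the share of members was 20.9%. Dcn read 45.6 to 159.1 (median 92.6) and differed by -1.26 ± 0.10 (limma adjusted p = 3.43e-14), and Col19a1 read 28.8 to 74.5 (median 36.7) and differed by -0.96 ± 0.06. Col11a1 (-0.57 ± 0.08), Mmp17 (-0.55 ± 0.06), Mmp16 (-0.55 ± 0.13), Col1a2 (-0.48 ± 0.13 by 101130_at), Col1a1 (-0.42 ± 0.10 by 94305_at), Fn1 (-0.40 ± 0.08), Lamb2 (-0.30 ± 0.09) and Lama1 (-0.30 ± 0.10) were lower as well. The second probe sets of Col1a2 and Col1a1, 161156_r_at and 103709_at, were not called. Higher were Col18a1 (0.66 ± 0.09 and 0.42 ± 0.08), Col9a3 (0.57 ± 0.09), Col8a1 (0.53 ± 0.12, 31.1 to 141.6), Timp3 (0.43 ± 0.04, 736 to 1042), Timp2 (0.36 ± 0.08), Sparc (0.30 ± 0.06) and Lama5 (0.24 ± 0.08). With scan day as a random block Col8a1, Lama5, Col1a2, Lamb2 and Lama1 lost the call, and with additive terms for scan day 10 members were called. Of the 16 meningeal and perivascular markers 7 were lower and 1 higher, with Fmod at -0.89 ± 0.15 and Islr at -0.64 ± 0.09, and the higher one was Igf2 (0.63 ± 0.19). Their summed level was 1361 to 3639. Choroid plexus markers were higher in 6 of 7 cases and lower in none, with Ttr at 3.71 ± 0.45, and their summed level spread from 120.4 to 5399 between bed nucleus arrays, against 94.2 to 860 in the other 3 regions. Their part in the matrix differences was not tested.

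Amygdala arrays were set against cingulate cortex arrays, both amplified from 50 ng. Of 86 members 22 were called, 10 higher and 12 lower, which at 25.6% is near the background of 24.5% of all probe sets (11.9% higher, 12.6% lower). Col6a1, a chain of the microfibrillar collagen VI, read 232 to 354 against 141 to 227 (amygdala against cingulate cortex) by probe set 95493_at, with no overlap and a difference of 0.71 ± 0.08 (limma adjusted p = 5.46e-11). Its second probe set differed by 1.06 ± 0.14. Sparc read 361 to 682 against 187 to 302, also without overlap, and differed by 1.04 ± 0.08. Lamb1 (0.83 ± 0.10 and 0.27 ± 0.08), Lamb3 (0.66 ± 0.16), Col5a2 (0.58 ± 0.12), Col11a1 (0.43 ± 0.10), Col18a1 (0.37 ± 0.10) and Col9a1 (0.35 ± 0.08) were the other members called higher.

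Lower in the amygdala was Col1a2, which read 1.8 to 49.4 (median 8.6) against 19.2 to 126.8 (median 51.1) and differed by -1.28 ± 0.16 (101130_at, limma adjusted p = 9.64e-09). Col19a1 read 89.2 to 195.3 against 205 to 313, with no overlap, and differed by -0.79 ± 0.08. Fn1 (115 to 313 against 191 to 394) fell by 0.79 ± 0.09 and Bgn by 0.69 ± 0.12. Lum, Col1a1, Col5a1, Lama4, Lama1, Mmp17 and Col22a1 were lower by 0.17 to 0.44. Of these, Col22a1 lay at the floor, with region means of -7.7 to -2.9. Probe sets 103709_at of Col1a1 and 161156_r_at of Col1a2 were not called. Meningeal and perivascular markers were lower in 12 of 16 cases (Ogn by 1.51 ± 0.16) and endothelial markers in 8 of 12 (Vwf by 1.08 ± 0.13), while 5 of 7 choroid plexus markers were higher. Their part was not tested.

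Timp2 stood out between the protocols. By probe set 93507_at it read 11.8 to 55.1 in the cingulate cortex and 3.1 to 36.7 in the amygdala, against 241 to 870 in the 49 brain arrays labelled from 10 µg. It was the only member whose 26 amplified arrays all lay below those arrays (5.76% of all probe sets), and none lay above them (5.70%). Region and labelling cannot be told apart here, and no difference was tested. The other Timp2 probe sets gave no such gap: 160116_at had means of 22.6 and 24.3 in the amplified tissues and 16.6 to 19.0 in the other 4 brain regions.

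TIMPs differed in level and in pattern. Timp3 had high intensity in every tissue, with medians of 477 in the hippocampus, 638 in the periaqueductal gray, 611 in the amygdala, 659 in the cingulate cortex, 819 in the hypothalamus, 826 in the bed nucleus and 879 in the pituitary. The hippocampus (385 to 630) and the bed nucleus (736 to 1042) did not overlap, while the ranges of the bed nucleus, hypothalamus (598 to 1063) and pituitary (773 to 1083) did. Timp1, by 101464_at, had medians of 132 to 243 and overlapped between all tissues. It was called higher in the hippocampus (0.28 ± 0.08) and lower in the periaqueductal gray (-0.26 ± 0.08). Levels of the amygdala and cingulate cortex, which were amplified, were not tested against the other tissues.

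Most MMPs, the enzymes that cut matrix proteins, were near background in every tissue. Besides Mmp14 and Mmp17, no Mmp gene had a region mean above the median of all values. Mmp9, gelatinase B, had region means of 17.7 to 47.1 by 99957_at and 1.6 to 8.3 by 162369_f_at. Mmp11 had 22.7 to 39.0, Mmp16 2.9 to 36.4, Mmp10 5.8 to 14.9, and Mmp7 had a mean above 0 in the pituitary only (4.7), where it differed by 0.29 ± 0.08. Mmp14 read 72.2 to 188.5 in the 49 brain arrays labelled from 10 µg and 70.5 to 190 in the amplified tissues, so brain regions overlapped.

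Other members with small regional differences were basement membrane and fibril-associated collagens. Col9a2, a chain of the fibril-associated collagen IX, was lower in the hippocampus by 0.42 ± 0.08 (70.2 to 115.1) and higher in the hypothalamus by 0.23 ± 0.08 (111.8 to 168.4). Col12a1, by 92313_at, was lower in the periaqueductal gray by 0.43 ± 0.11, and Col9a1 was higher in the hypothalamus by 0.23 ± 0.06. Col4a1 was higher in the hippocampus by 0.18 ± 0.06 (201 to 305). Lum had medians of 44.2 in the hippocampus, 18.0 in the periaqueductal gray, 36.1 in the hypothalamus, 26.3 in the bed nucleus, 80.1 in the cingulate cortex and 48.5 in the amygdala, against 123 in the pituitary. Bgn, by 96049_at, had medians of 151, 108, 174, 114, 299 and 179 in the same order of brain regions and 321 in the pituitary. The pituitary range (222 to 390) overlapped with that of the cingulate cortex (166 to 547), which was amplified, so region and labelling cannot be told apart.

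Pairs of collagen genes did not track each other equally. Over the 24 group means of the 4 brain regions labelled from 10 µg, Pearson's r was 0.786 between Col1a1 (94305_at) and Col1a2 (101130_at), 0.625 between Col1a2 and Col3a1 (98331_at), and 0.196 between Col4a1 and Col4a2. These groups share regions, strains and animals, so the values are a description. Each gene entered by the probe set with the highest region mean, the pituitary included. In the 49 arrays of these brain regions the probe sets left out were brighter for both type I collagen genes. Medians were 70.3 for 103709_at of Col1a1 against 35.6 for 94305_at, and 234.2 for 161156_r_at of Col1a2 against 16.7 for 101130_at. Col4a1 read 141 to 305 and Col4a2 242 to 465 in single arrays of these regions, with region medians of 204 to 255 for Col4a1 and 279 to 347 for Col4a2.

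**Figure D3:**
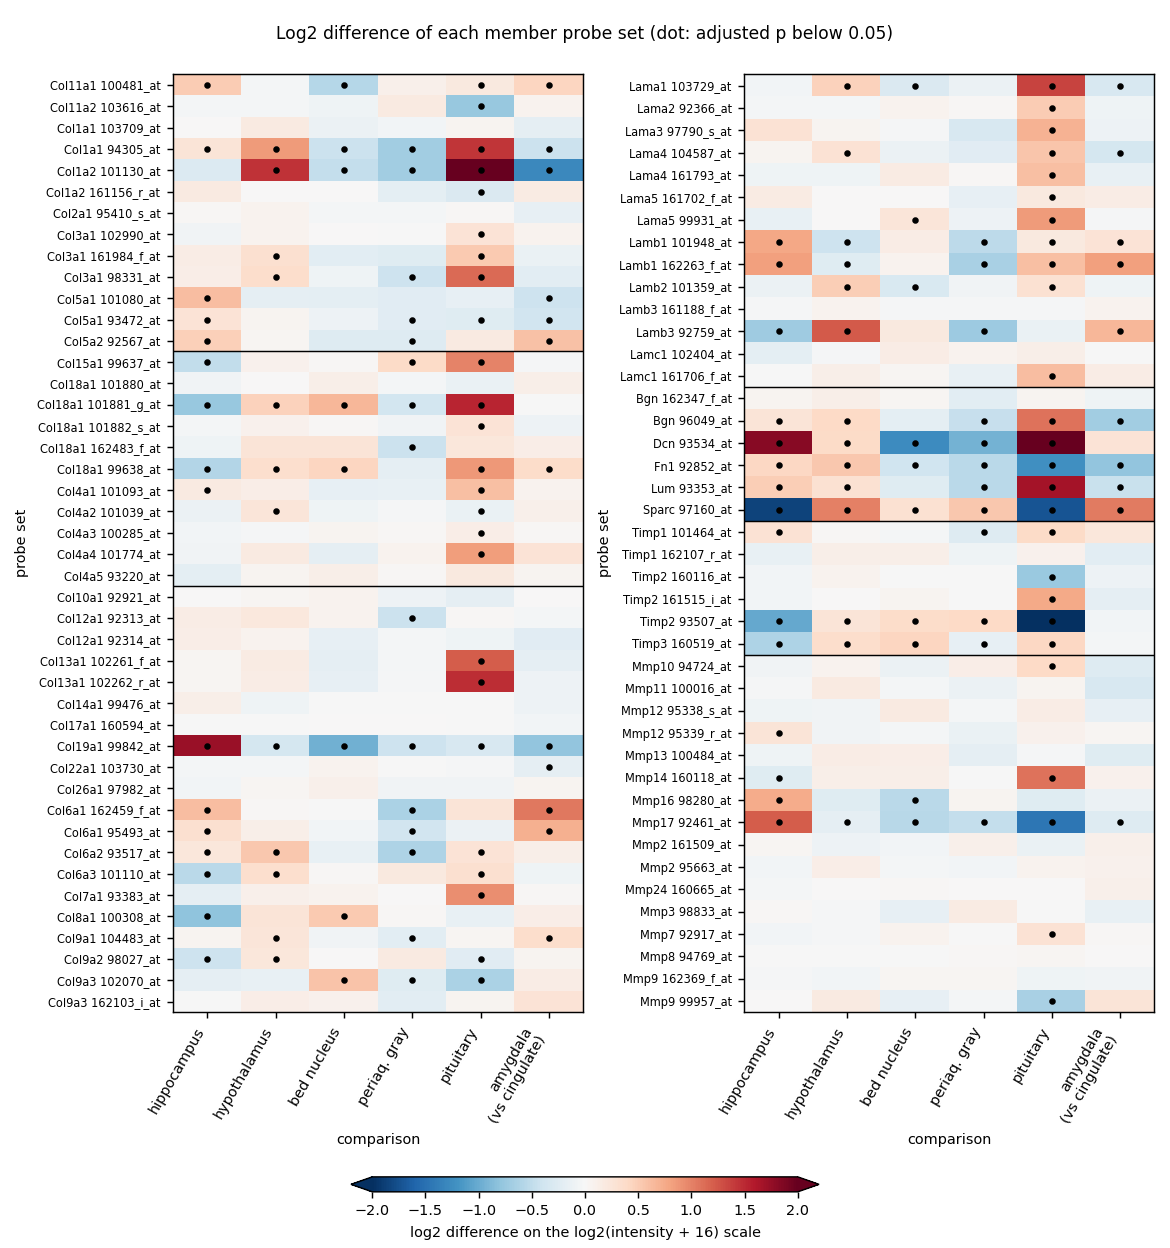
Log2 difference (colour, on the log2(intensity + 16) scale, limited at 2 in each direction) of all 86 member probe sets in the 6 region comparisons; dots mark adjusted p below 0.05 and lines separate the roles. The pituitary column is red over most laminins, and most MMP rows are pale. The hypothalamus and periaqueductal gray columns differ in sign for Col1a1 (94305_at), Col1a2 (101130_at), Dcn, Lum, Fn1 and Bgn (96049_at). Sparc is higher in both.

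Strains differed in few matrix genes. Over the 6 brain regions 18 of 86 members (20.9%) passed the F test among strains, below the background of 27.4% of all probe sets. Each strain was then set against the other 5, so these comparisons share arrays. In 129S6/SvEvTac 8 members were called, all lower (background 10.1%, and 5.10% lower), and 4.96% of all probe sets were higher there. A/J had 3, all higher (9.83%, 5.29% higher and 4.54% lower), and C57BL/6J 3, all lower (12.8%, 6.27% and 6.48%). C3H/HeJ had 4, with 2 in each direction (5.70%, 2.46% and 3.24%), DBA/2J 5, of which 4 were higher (7.59%, 4.02% and 3.57%), and FVB/NJ 4, with 2 in each direction (7.66%, 3.97% and 3.69%).

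Col11a1, a minor fibrillar collagen chain that sets fibril diameter, was the member that differed most among strains (F = 32.6, limma adjusted p = 4.39e-13). In brain it read 12.4 to 32.9 (median 19.4) in C57BL/6J and 6.8 to 42.6 (median 25.5) in 129S6/SvEvTac. The medians of the other strains were 44.5 in FVB/NJ, 44.6 in C3H/HeJ, 47.8 in DBA/2J and 52.1 in A/J, with ranges that overlap. In the hippocampus the strains separated: the C57BL/6J arrays read 17.6 and 12.4 and the 129S6/SvEvTac arrays 42.6 and 38.1, and all arrays of the other 4 strains lay between 77.0 and 128.8. C57BL/6J was lower than the other strains by 0.68 ± 0.08 (limma adjusted p = 3.22e-09) and 129S6/SvEvTac by 0.58 ± 0.08 (1.14e-07), each in 6 of 6 regions. A/J was higher by 0.47 ± 0.08 and C3H/HeJ by 0.34 ± 0.08, each in 6 of 6 regions. For A/J, C3H/HeJ and FVB/NJ the reference includes the low C57BL/6J and 129S6/SvEvTac arrays, so their calls are not separate from the lower ones. FVB/NJ was higher by 0.24 ± 0.08 (5 of 6), and with scan day as a random block this last call was lost (adjusted p = 0.0896). It was the only member called among strains within the hippocampus (F = 21.1), where 3.91% of all probe sets were. A single probe set carries this result, and a sequence variant under a probe was not tested.

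Mmp12, macrophage elastase, was next (F = 9.06 by 95339_r_at, limma adjusted p = 4.45e-05). It read 3.7 to 22.6 in 129S6/SvEvTac and 13.0 to 74.3 in DBA/2J, all low intensities, and its second probe set, 95338_s_at, was called in no comparison. Mmp12 was lower in 129S6/SvEvTac by 0.47 ± 0.09. Dcn (F = 7.87) was higher in DBA/2J by 0.43 ± 0.10 (6 of 6 regions) and in FVB/NJ by 0.34 ± 0.10 (5 of 6). Fn1 (F = 7.69) was higher in DBA/2J by 0.36 ± 0.07, with 99.4 to 394.3 (median 224) there, and lower in 129S6/SvEvTac by 0.26 ± 0.07, a call that was lost with scan day as a random block (adjusted p = 0.0668). Timp3 (F = 7.27) was lower in 129S6/SvEvTac by 0.23 ± 0.04. Col6a3 (F = 6.20) was higher in C3H/HeJ by 0.48 ± 0.11, with 14.6 to 121.9 there and at most 69.2 in any other strain.

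The remaining strain calls were small. Sparc (-0.27 ± 0.06), Col11a2 (-0.43 ± 0.11), Mmp16 (-0.38 ± 0.12) and Lamb2 (-0.27 ± 0.08) were lower in 129S6/SvEvTac, and Col1a2 (161156_r_at, -0.31 ± 0.07) and Col4a2 (-0.19 ± 0.06) in C57BL/6J. Mmp14 was higher in A/J by 0.25 ± 0.07 and lower in C3H/HeJ by 0.24 ± 0.07, and Mmp17 was higher in A/J by 0.19 ± 0.06. Col18a1 (101881_g_at, -0.27 ± 0.08) was lower in C3H/HeJ. DBA/2J had higher Mmp16 (0.39 ± 0.12) and Mmp12 (0.30 ± 0.10) and lower Mmp11 (-0.32 ± 0.10), and FVB/NJ lower Timp2 (-0.26 ± 0.08) and Mmp12 (-0.30 ± 0.10). With scan day as a random block Mmp16, Lamb2, Mmp14 in A/J, Mmp17, Col4a2, Col18a1, Mmp11, Timp2 and Mmp12 in FVB/NJ lost the call. With additive terms for strain, region and scan day, 5 of the strain calls stayed past the threshold: Col11a1 in C57BL/6J, 129S6/SvEvTac and A/J, Fn1 in DBA/2J and Mmp14 in C3H/HeJ. The others were lost, among them Sparc (adjusted p = 0.535), Timp3 (0.0654), Mmp12 in 129S6/SvEvTac (0.24), Col6a3 (0.114), Col11a1 in C3H/HeJ (0.104) and Dcn in DBA/2J (0.456) and FVB/NJ (0.125).

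**Figure D4:**
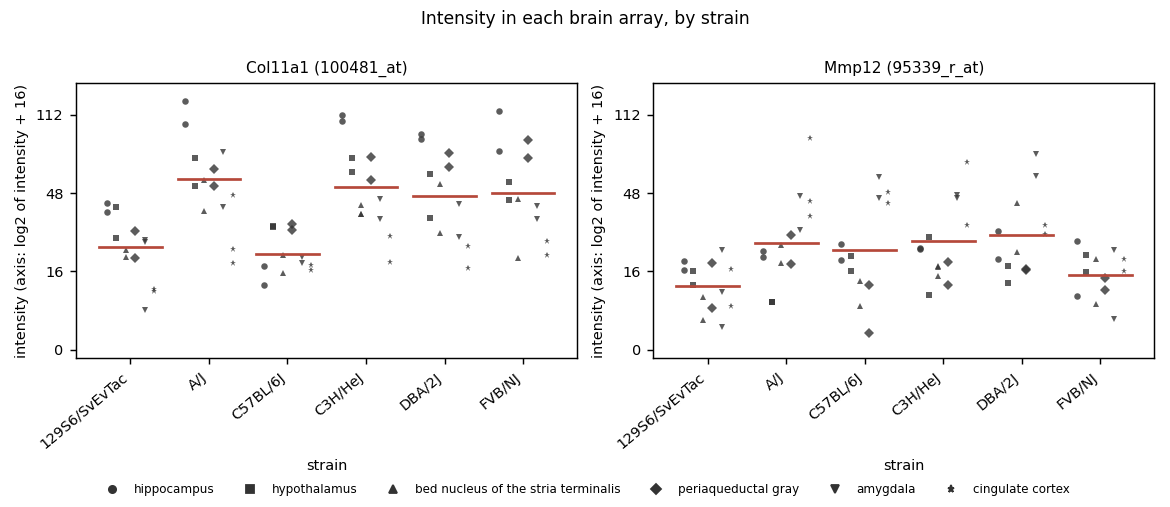
Intensity of Col11a1 and Mmp12 in each brain array by strain, on an axis of log2(intensity + 16) labelled with the intensity; symbols give the region and red lines the mean over regions. Col11a1 has its lowest means in C57BL/6J and 129S6/SvEvTac, with the widest gap among hippocampus arrays, and Mmp12 is low in 129S6/SvEvTac and FVB/NJ.

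Within single regions, the hypothalamus held 10 members that differed among strains, 11.6% of the 86 beside a background of 8.24%. The amygdala held 11 (12.8%, background 22.4%), the pituitary 8 (9.70%), the cingulate cortex 4 (20.4%), the periaqueductal gray 3 (5.95%) and the bed nucleus 2 (7.31%). In the hypothalamus Dcn (F = 9.12) read 153 and 62.2 in 129S6/SvEvTac, 165 and 263 in A/J, 251 and 236 in C57BL/6J, 210 and 168 in C3H/HeJ, 394 and 402 in DBA/2J, and 547 and 264 in FVB/NJ. Col1a2 (101130_at, F = 6.84) read 51.2 and 10.7 in 129S6/SvEvTac, 49.5 and 84.3 in A/J, 110.5 and 73.9 in C57BL/6J, 49.7 and 18.0 in C3H/HeJ, 78.9 and 92.6 in DBA/2J, and 195 and 122 in FVB/NJ. The highest arrays of both genes came from FVB/NJ and the lowest from 129S6/SvEvTac, and replicates of 129S6/SvEvTac were far apart. Fn1 (F = 7.23) ranged from 79.1 in 129S6/SvEvTac to 326 in FVB/NJ.

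The meningeal and perivascular marker sum in the same hypothalamus arrays was 2816 and 1338 in 129S6/SvEvTac, 2147 and 1644 in C3H/HeJ, 2227 and 3104 in A/J, 3422 and 2995 in C57BL/6J, 3037 and 2971 in DBA/2J, and 5876 and 3753 in FVB/NJ. The array highest in this sum was also highest in Dcn, Col1a2 and Fn1, and the array lowest in it was lowest in all 3. Its part in the strain differences was not tested. Without the FVB/NJ array 1 and the C57BL/6J array 1, 5 members were called within the hypothalamus, and Col1a2 (adjusted p = 0.0706) was not among them while Dcn (0.00182) and Fn1 (0.00856) were.

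**Figure D5:**
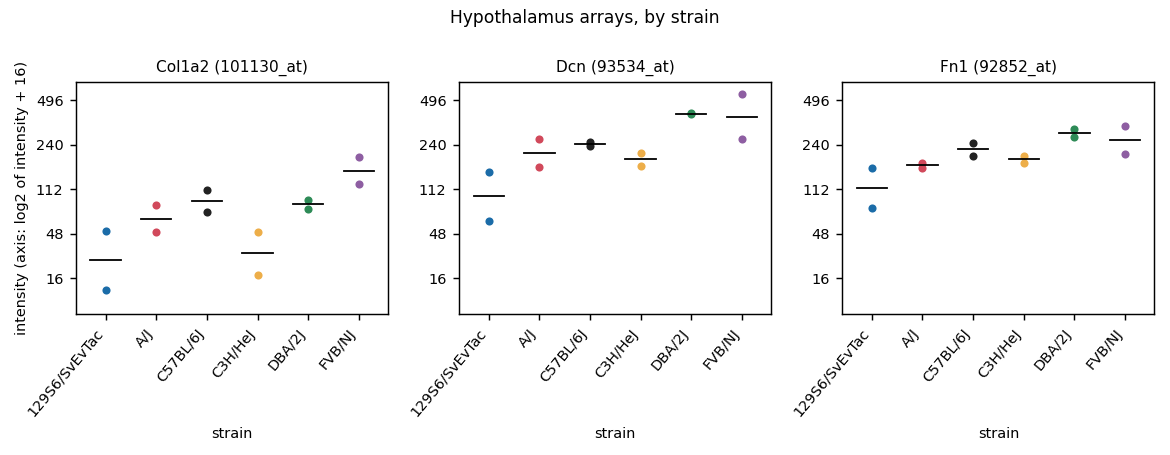
Intensity of Col1a2, Dcn and Fn1 in the 12 hypothalamus arrays by strain, on an axis of log2(intensity + 16) labelled with the intensity; points are arrays and lines the means of 2 arrays. All 3 genes have their lowest array in 129S6/SvEvTac and their highest in FVB/NJ.

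In the pituitary, the F test compares 6 groups whatever their names, so it does not depend on which of the 2 doubtful labels a pair of arrays carries. Besides dim Col18a1 (101882_s_at), Col4a3 and Lama4 (161793_at) probe sets, it called Col9a1 (F = 7.16, group levels of 54.4 to 133), Col4a1 (F = 6.97, 258 to 492), Col7a1 (F = 6.96, 84.4 to 236), Col19a1 and Col5a1. The highest group was DBA/2J for Col9a1, Col4a1 and Col7a1. With scan day as a random block 4 members were called.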

How the data were processed

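Affymetrix MG_U74Av2 arrays of 6 brain regions and the pituitary gland of 6 mouse strains were used (87 arrays). The authors deposited 1 matrix of intensity values on a linear scale, of which 6.35% lie below 0, and a scanner record for each array; which program made them and how they were scaled was not given in the sources used here. In the deposited scanner records, the values used were of another kind: the scan day (17 days, of which 14 hold more than 1 group) and the animals named. Of 12488 probe sets 66 controls were left out, and 10833 had 1 symbol in the array annotation, 396 several and 1193 none. Symbols were brought up to date through gene identifiers in a RefSeq table (GRCm38.p6).

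From the deposited values log2(intensity + 16) was computed, with values below 0 set to 0. Limma 3.58.1 (R 4.3.3, statmod 1.5.0) fitted a mean for each of the 42 groups with a variance trend, and all 12422 probe sets were tested without a filter so that every member entered. A call was a Benjamini-Hochberg adjusted p below 0.05. Replicate arrays correlated at 0.953 to 0.992 and none were identical. The 2 or 3 arrays per group limit the precision.

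The rule for members uses symbols only, but the choice of this gene family, and of the lists, was made with earlier results of these data known. Named per comparison were up to 10 called members in each direction and the 6 largest F values, and, whatever their values, Col1a1, Col1a2, Col3a1, Col4a1, Col4a2, Fn1, Sparc, Dcn, Bgn, Lum and the Timp genes. The Mmp12, Lamb3, Col18a1 and Timp probe sets beyond this rule were named because the probe sets of a gene differ. Alternatives were an offset of 64, quantile normalization, a filter on dim probe sets, blocks of scan day, animal and replicate number, left-out replicates, all 7 regions, and fits of arrays of 1 labelling. Replicate numbers did not pair the arrays: of 126 pairs of regions within a strain, 7 had same-numbered deviations correlated above 0.1 (range -0.283 to 0.177). The fit was run on simulated data with independent noise in each array. Effects of scan day and shared animals were not part of that test. Genes without an entry in the promoter table were named only.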

Additional observations from a re-analysis of the deposited data

Results flagged for a closer look

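6 members are listed because the difference among strains depended on the brain region in limma's interaction F test. That test called 8 of 86 members, 9.30% beside a background of 14.0% of all probe sets, and the other 2 were Dcn and the dim Col22a1. Col18a1 (101881_g_at, F = 3.59, adjusted p = 0.00226) had group levels of 3.0 in C3H/HeJ and 44.7 in FVB/NJ in the hypothalamus, and of 24.7 in A/J and 0 in FVB/NJ in the periaqueductal gray. Col12a1 (92314_at, F = 3.07, adjusted p = 0.00774) was highest in C3H/HeJ in the hypothalamus (70.9) and in FVB/NJ in the periaqueductal gray (66.9). Col9a1 (F = 3, adjusted p = 0.00904) ranged from 66.1 in C57BL/6J to 133.1 in 129S6/SvEvTac in the hypothalamus. Col5a1 (93472_at, F = 3, adjusted p = 0.00912) ranged from 115 in C57BL/6J to 222 in C3H/HeJ there. Mmp12 (95339_r_at, F = 2.63, adjusted p = 0.0214) ranged from 11.3 in 129S6/SvEvTac to 66.0 in DBA/2J in the amygdala and from 8.4 to 18.4 in the hypothalamus. Col1a2 (101130_at, F = 2.55, adjusted p = 0.0257) ranged from 26.4 in 129S6/SvEvTac to 155 in FVB/NJ in the hypothalamus and from 6.4 in FVB/NJ to 30.6 in C57BL/6J in the hippocampus. With scan day as a random block 3 members were called, and Col12a1 (adjusted p = 0.137), Col5a1 (0.111) and Col1a2 (0.182) were not. Without the hypothalamus arrays FVB/NJ 1 and C57BL/6J 1, Col1a2 was not called (0.089).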

How the results depend on the processing

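Among the named differences, each recomputed under the alternatives that apply to it, none changed sign. With the first animal named for each array as a random block, all 21 counts stayed within 1.5 times. Arrays that share only a later-named animal fell in different blocks. With scan day as a random block (consensus correlation 0.302), member counts were 5 for 129S6/SvEvTac, 1 for A/J, 3 for DBA/2J, 1 for FVB/NJ, 9 for the F test among strains and 3 for strain by region, and within regions 1 in the bed nucleus, 5 in the hypothalamus, 1 in the periaqueductal gray and 4 in the pituitary. With additive terms for scan day, chosen after seeing the data, they were 10 for the bed nucleus, 13 for the hypothalamus, 16 for the periaqueductal gray, 2 for 129S6/SvEvTac, 1 each for A/J, C57BL/6J, C3H/HeJ and DBA/2J, 2 for FVB/NJ and 9 for the F test among strains. Without the 2 hypothalamus arrays that stood apart, also chosen after seeing the data, they were 16 for the hypothalamus and 5 for strains within it. Over all 7 regions C57BL/6J had 6 and DBA/2J 3. Strains within the bed nucleus gave 4 with an offset of 64, with quantile normalization and with the filter, and 5 with the replicate block; the block moved no other count past 1.5 times. An offset of 64 gave 2 in the hippocampus, and quantile normalization 7 in the amygdala. Shares of all probe sets called under each alternative are not given here. Counts under the alternatives, wherever given, therefore do not show whether a change is particular to the members. The cause was not tested.

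Leaving out replicate 1, 2 or 3 in turn gave 37 to 51 members for the pituitary, 11 to 31 for the hippocampus, 3 to 26 for the hypothalamus, 1 to 28 for the periaqueductal gray, 0 to 19 for the bed nucleus and 2 to 21 for the amygdala. For strains it gave 0 to 8 (129S6/SvEvTac), 0 to 3 (A/J, C57BL/6J and C3H/HeJ each), 0 to 6 (DBA/2J), 0 to 5 (FVB/NJ), 0 to 17 (F test), 0 to 11 (strain by region), and within regions 0 to 12 in the amygdala, 0 to 6 in the bed nucleus, 0 to 4 in the cingulate cortex, 0 to 1 in the hippocampus, 0 to 10 in the hypothalamus, 0 to 3 in the periaqueductal gray and 0 to 10 in the pituitary. Without replicate 1 or 2 most groups keep 1 array, which is assumed to vary like the groups that keep 2. Dim members, among them most MMPs, limit what these arrays can show.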
